A study of Mus musculus with 7 samples.

Results

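The genes described here are the transcriptional coactivators YAP (Yap1) and TAZ (Wwtr1), their DNA-binding partners Tead1, Tead2, Tead3 and Tead4, and 4 genes widely used as readouts of their activity: Ctgf, Cyr61, Ankrd1 and Amotl2. They were chosen by name, with earlier results of these data known, and all 10 were found among the 24346 genes of the deposited expression table. RNA was measured in primary neurospheres, free-floating balls of neural stem cells (NSCs) and their progeny, grown with FGF and EGF from the hippocampus of single 2-month-old C57/BL6 mice. Libraries from 4 control mice (WT_215, WT_116, WT_213 and WT_220) were compared with libraries from 3 Med23 CKO mice (KO_117, KO_214, KO_218), in which tamoxifen activates a Cre recombinase driven by Nestin regulatory sequences and removes exons 5 to 7 of Med23, a subunit of the Mediator complex. All deposited libraries were used, although the study counts fewer control mice than were deposited. The control libraries are labelled wild type and come from littermates, whose floxed or Cre alleles are not given for each mouse. Mice of both groups received tamoxifen at 200 mg/kg once a day on 5 days. The labels place this treatment at 2 months of age, whereas the methods of the study place it earlier for mice used for cultures. Cells that never expressed the Nestin-driven Cre keep Med23, and each value is a mean over every cell of a culture.

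In the Hippo pathway, a chain of kinases ending in LATS1 and LATS2 phosphorylates YAP and TAZ and holds them in the cytoplasm. When the kinases are inactive, YAP and TAZ enter the nucleus, bind TEAD factors and switch on genes for matrix signaling, growth and feedback on the pathway itself. Because the control acts mainly on protein location, the messenger level of Yap1 or Wwtr1 does not measure YAP or TAZ activity, and target genes are read instead. In the brain the pathway is active in neural stem cells and astrocytes, and also in endothelial, mural and meningeal cells.

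No member of the pathway core or of its 4 target genes differed between Med23 CKO and control neurospheres beyond the spread between mice. Of the 10 genes, 9 had a higher and 1 (Amotl2) a lower mean on the log2(FPKM + 1) scale in Med23 CKO cultures, where FPKM is the number of sequenced fragments scaled to transcript length and library size. Over all genes tested, the Med23 CKO mean was the higher one for 43.8%. The clearest feature was the distance between Med23 CKO mice: Ctgf was 63.5-fold and Cyr61 18.0-fold higher in KO_214 than in KO_117, so that 2 mice of the same genotype lay beyond the control range on opposite sides. By limma over 14151 genes, 0 of the 9 members tested had an adjusted p under 0.05, 0 were higher and 0 were lower at an unadjusted p under 0.05. Among all genes tested these shares were 0%, 0.502% and 0.996%. The smallest adjusted p of any gene in that fit was 0.9999, and this bounds the adjusted p of every gene of the fit named here. For 0 members did all Med23 CKO values lie above all control values, which was so for 0.784% of all genes tested, and for 0 did they all lie below, against 1.53%. Each library is a different mouse, and the smallest p that the exact permutation test over 35 assignments of the 7 libraries can give is 0.0286. In RNA from whole cultures, fewer cells of a type and less RNA per cell cannot be told apart.

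Across the whole table, the libraries listed between 16841 and 18113 genes above 0 FPKM and correlated at 0.907 to 0.990 with one another on the log2 scale. KO_214 stood apart in that its 10 most abundant genes held 12.2% of the summed FPKM, against 5.12% to 8.61% in the other libraries. The number of reads behind each value is unknown. The deleted gene, Med23, was 11.4, 10.3, 12.9 and 10.1 FPKM among controls and 9.96, 9.27 and 8.12 FPKM among Med23 CKO mice. The 3 Med23 CKO libraries all lay lower than the lowest control (log2 fold change −0.26, SE 0.18, exact permutation p = 0.0571), but FPKM covers the whole transcript and does not isolate the deleted exons. The study itself reports the deletion from western blots of hippocampal tissue and from qRT-PCR of Med23 in primary neurospheres.

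**Figure D1:**
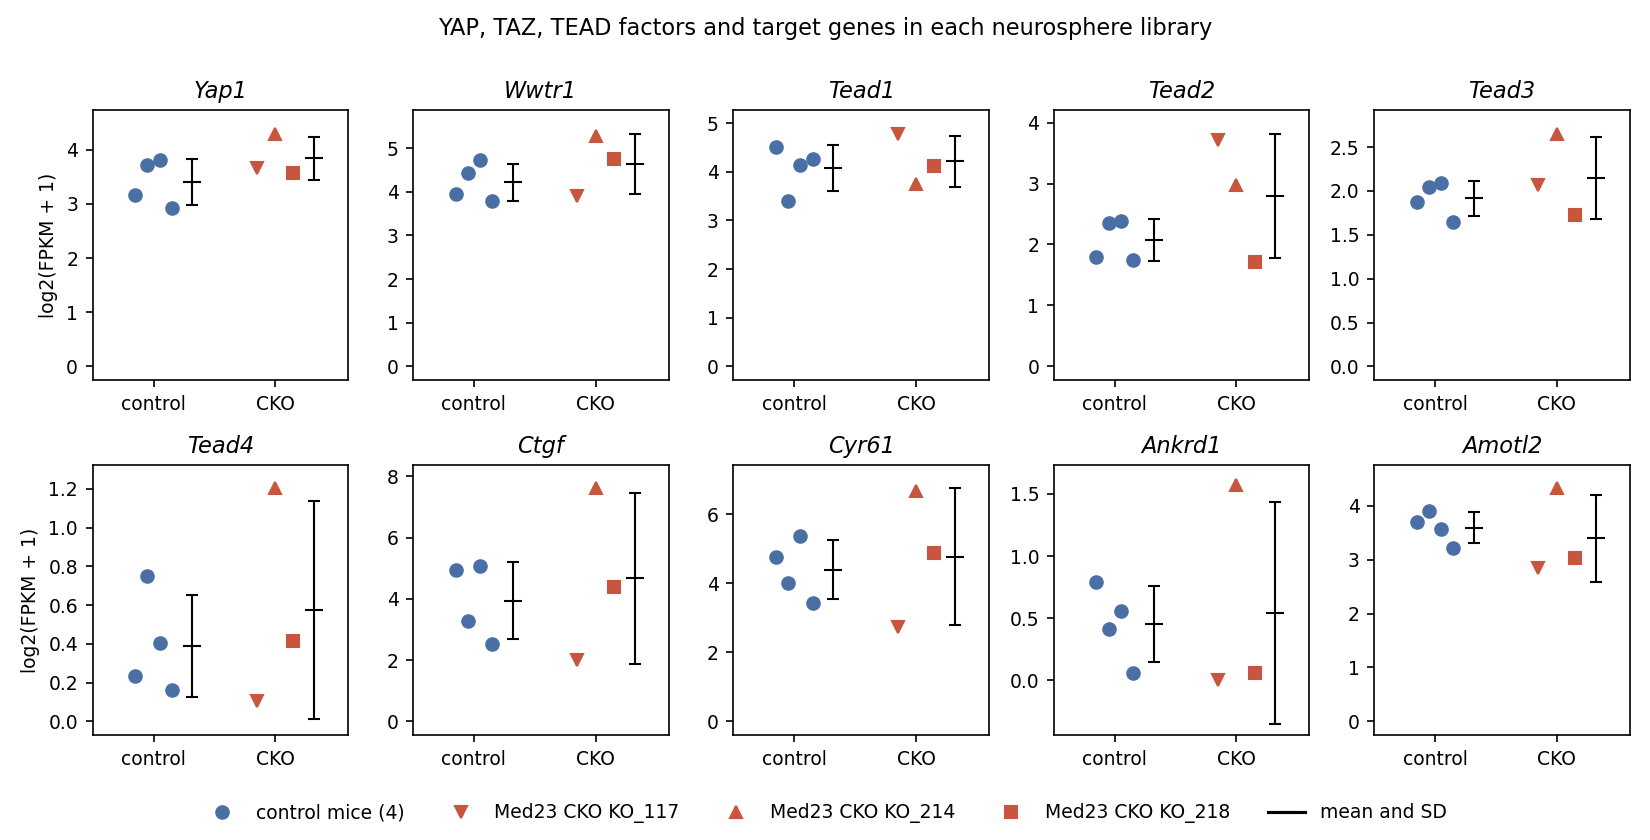
Level of each of the 10 genes in every library, as log2(FPKM + 1) on the vertical axis, for 4 control mice (circles) and 3 Med23 CKO mice (symbols by mouse), with the mean and SD of each group beside the points. The groups overlap in every panel, and KO_214 (upward triangle) is the highest point for 8 of the 10 genes.

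Yap1, the coactivator after which the complex is named, was 7.97, 12.2, 13.0 and 6.60 FPKM among controls and 11.6, 18.7 and 10.9 FPKM among Med23 CKO mice, with libraries always given in the order named above. One Med23 CKO mouse, KO_214, lay above the controls and the other 2 lay among them. The means were 9.94 ± 3.13 FPKM (SD, n = 4) and 13.7 ± 4.30 FPKM (SD, n = 3), a log2 fold change of 0.44 (SE 0.30, 95% interval −0.26 to 1.14, exact permutation p = 0.286). Wwtr1, which encodes the paralogous coactivator TAZ, was 14.4, 20.4, 25.3 and 12.8 FPKM among controls and 13.8, 37.4 and 25.9 FPKM among Med23 CKO mice. KO_214 was again the highest library, KO_218 lay just above the top control and KO_117 lay near the bottom of the control range. The log2 fold change of Wwtr1 was 0.42 (SE 0.37, 95% interval −0.45 to 1.28, exact permutation p = 0.371). Without KO_117 it was 0.79 (unadjusted limma p under 0.05), the 1 call among the members in that direction when this mouse was left out, where 2.5% of all genes were called higher. Without KO_214 the log2 fold change was 0.10 for Wwtr1 and 0.21 for Yap1.

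TAZ messenger exceeded Yap1 messenger in all 7 libraries. Since FPKM is scaled by transcript length, the 2 levels can be set side by side. The ratio of Wwtr1 to Yap1 FPKM was 1.81, 1.67, 1.95 and 1.94 in the control libraries and 1.19, 2.00 and 2.38 in the Med23 CKO libraries. The controls lay close together, with KO_117 below and KO_214 and KO_218 above them.

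The 4 TEAD factors are the DNA-binding side of the complex, and Tead1 was the most abundant of them in every library. Tead1 was 21.8, 9.61, 16.7 and 18.3 FPKM among controls and 26.6, 12.4 and 16.3 FPKM among Med23 CKO mice. It ran opposite to most of the other genes, with KO_117 highest and KO_214 lower than 3 of the 4 controls. Its log2 fold change was 0.13 (SE 0.34, 95% interval −0.67 to 0.93, exact permutation p = 0.8), and the sign turned without KO_117 (−0.16) and without WT_116 (−0.10).

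Tead2, known from early embryonic and neural progenitor cells, was highest in KO_117 like Tead1. It was 2.47, 4.10, 4.25 and 2.34 FPKM among controls against 12.2, 6.86 and 2.26 FPKM among Med23 CKO mice. KO_117 and KO_214 exceeded every control, while KO_218 was below every control. Its log2 fold change was 0.73 (SE 0.47, 95% interval −0.36 to 1.82, exact permutation p = 0.343). Without KO_218 it was 1.28 (unadjusted limma p under 0.05), the 1 member called higher in that comparison, in which 0.982% of all genes were called higher, and without KO_117 it was 0.27.

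Tead3 was 2.65, 3.13, 3.27 and 2.13 FPKM among controls and 3.21, 5.29 and 2.31 FPKM among Med23 CKO mice. KO_214 was the 1 library outside the control range, and the log2 fold change of 0.24 (SE 0.27, exact permutation p = 0.429) was −0.014 without it. Tead4, a factor best known from the trophectoderm and from muscle, was 0.176, 0.684, 0.323 and 0.118 FPKM among controls and 0.0767, 1.30 and 0.333 FPKM among Med23 CKO mice. Its mean of 0.430 FPKM was under the filter of 0.5 FPKM, so that it was not in the fit across genes. The difference of its mean log2(FPKM + 1) was 0.19 (exact permutation p = 0.629), and it was −0.13 without KO_214. When libraries were weighted by their estimated quality in limma, the log2 fold changes of Tead1, Tead2 and Tead3 were −0.036, −0.11 and −0.10.

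As a share of the summed TEAD level, Tead1 made up 80.4%, 54.8%, 68.0% and 79.9% in control and 63.2%, 47.9% and 76.8% in Med23 CKO libraries. Tead2 held 9.14% to 23.4% of the sum in controls, 29.0% in KO_117, 26.6% in KO_214 and 10.7% in KO_218. Thus 2 of the 3 Med23 CKO mice had a larger Tead2 share than any control, and the remaining mouse lay inside the control range. The sum itself was 27.1, 17.5, 24.5 and 22.9 FPKM in controls, and 42.1, 25.8 and 21.2 FPKM in KO_117, KO_214 and KO_218. KO_117, the library with the least Ctgf and Cyr61, therefore held the most TEAD messenger. Tead4 contributed 0.182% to 5.04% of the sum over the 7 libraries.

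**Figure D2:**
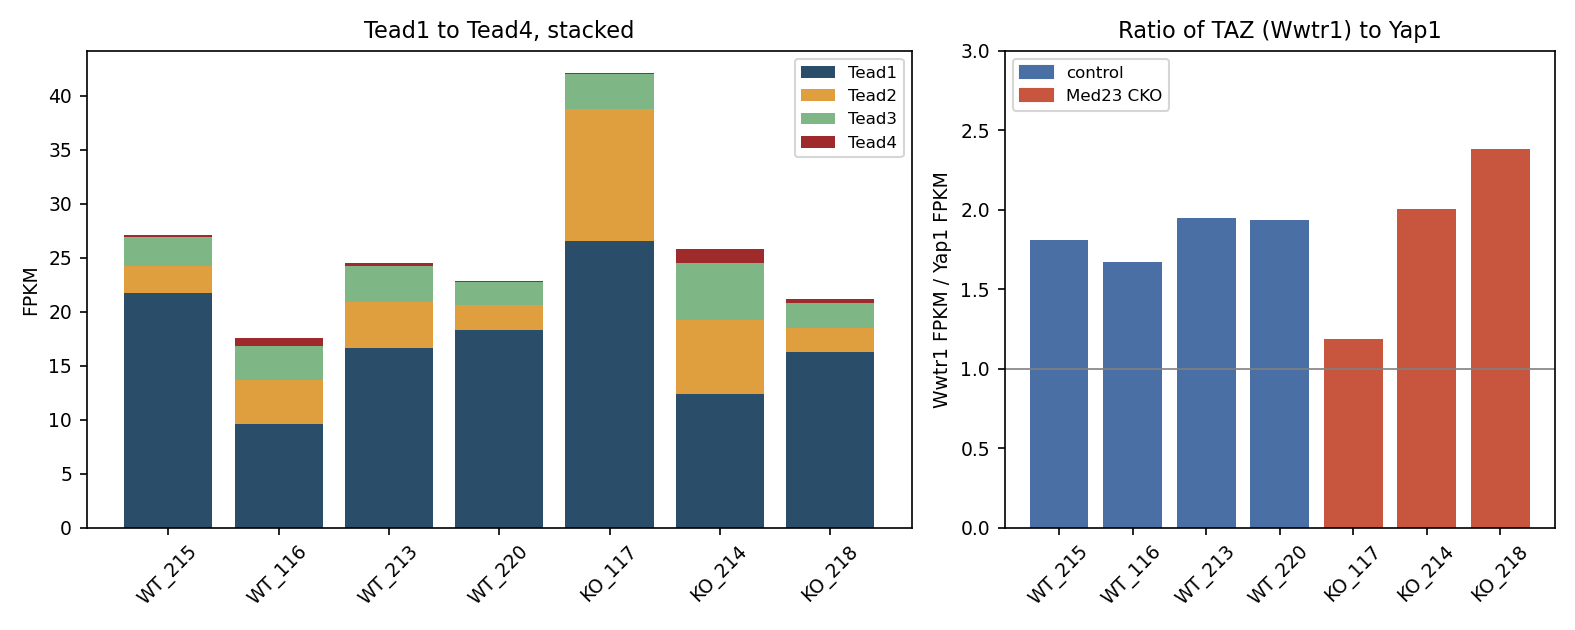
Left, FPKM of Tead1, Tead2, Tead3 and Tead4 stacked for each library. Right, the ratio of Wwtr1 to Yap1 FPKM in each library, with a line at 1; Tead1 is the largest part of every bar at left, from 47.9% to 80.4%, and every ratio at right is above 1.

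Of the 4 target genes, Ctgf and Cyr61 spread far more widely over the mice than the coactivators, which Amotl2 did not. Ctgf, a secreted matrix-associated protein and the most commonly used YAP/TAZ target, was 29.4, 8.60, 32.6 and 4.71 FPKM among controls and 3.04, 193 and 19.8 FPKM among Med23 CKO mice. KO_214 was above and KO_117 below all controls, with KO_218 between them. The controls themselves spanned 6.92-fold. The means were 18.8 ± 14.2 FPKM (SD, n = 4) and 72.0 ± 105 FPKM (SD, n = 3), and the log2 fold change was 0.72 (SE 1.27, 95% interval −2.24 to 3.69, exact permutation p = 0.714). Without KO_214 it was −0.74, and without KO_117 it was 2.05. KO_214 also had the highest summed level of mural and fibroblast markers (504 FPKM) and KO_117 the lowest (10.4 FPKM). The endothelial, ependymal and astrocyte marker sums had the same mice at their extremes. The part of any of these cells in the level of Ctgf was not tested.

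Cyr61, a secreted protein of the same CCN family, had the same mice at its extremes. It was 26.3, 15.2, 40.1 and 9.74 FPKM among controls and 5.65, 102 and 28.6 FPKM among Med23 CKO mice. KO_214 and KO_117 again bracketed the 4 controls, which spanned 4.12-fold. For Cyr61 the log2 fold change was 0.37 (SE 0.89, 95% interval −1.71 to 2.46, exact permutation p = 0.743), changing to −0.58 without KO_214 and to 1.39 without KO_117. The ratio of Ctgf to Cyr61 FPKM was between 0.483 and 1.116 in 6 of the libraries and 1.90 in KO_214.

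Ankrd1, an ankyrin repeat protein first known from heart muscle, was barely detected: 0.728, 0.329, 0.473 and 0.0442 FPKM among controls and 0, 1.98 and 0.0417 FPKM among Med23 CKO mice. KO_214 was above all controls, and the other 2 Med23 CKO libraries were below all of them, with Ankrd1 listed at 0 in KO_117. Its mean over all libraries was 0.513 FPKM and 0.269 FPKM without KO_214, so that it passed the filter through that library alone. Between genotypes the log2 fold change was 0.089 (SE 0.42, 95% interval −0.88 to 1.06, exact permutation p = 0.914) and −0.43 without KO_214. It was also below 0 with a pseudocount of 0.1 (−0.42), with array weights (−0.32) and without WT_220 (−0.042).

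Amotl2, an angiomotin family protein of cell junctions that binds YAP and is also its target, was 12.1, 14.0, 10.9 and 8.28 FPKM among controls and 6.17, 19.0 and 7.14 FPKM among Med23 CKO mice. KO_117 and KO_218 were below every control and KO_214 was above every control. For Amotl2 the log2 fold change was −0.20 (SE 0.38, 95% interval −1.09 to 0.69, exact permutation p = 0.657). Without KO_214 it was −0.66 (unadjusted limma p under 0.05), the 1 member called lower when that mouse was left out, where 1.45% of all genes were called lower; without KO_117 it was 0.076.

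**Figure D3:**
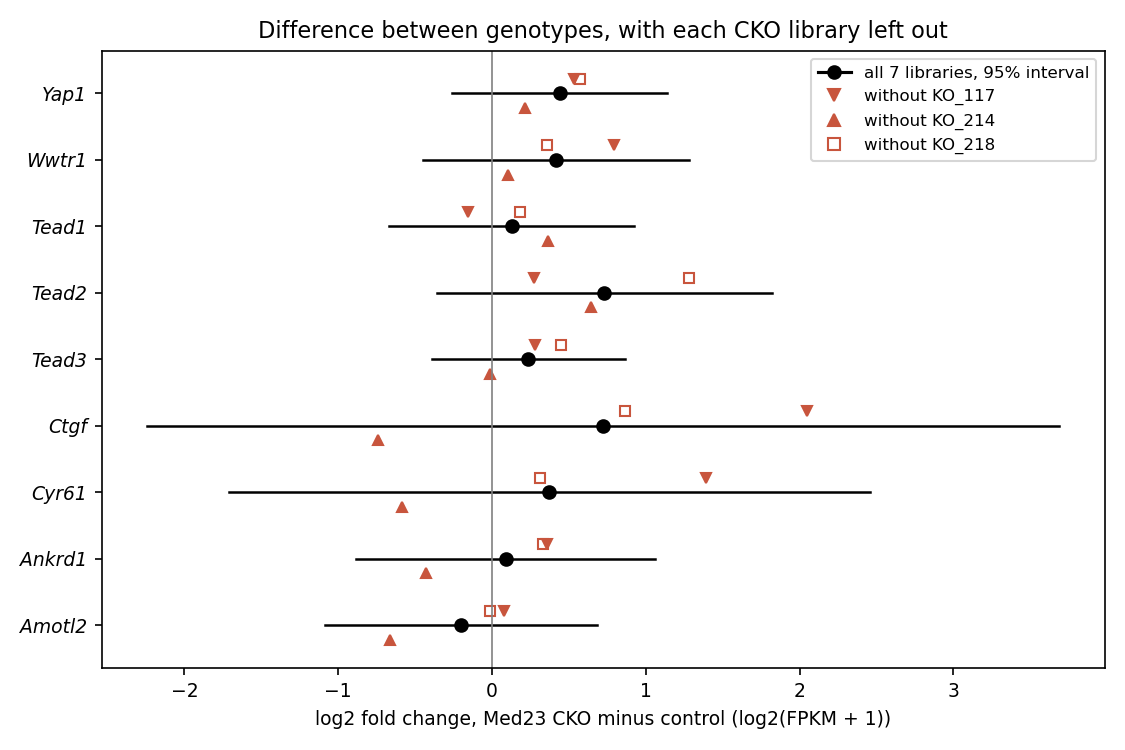
Difference between Med23 CKO and control in mean log2(FPKM + 1) for the 9 genes in the fit (black, with the 95% interval from limma), and the same with each Med23 CKO mouse left out (red symbols). Every interval crosses 0, and the estimates for Ctgf run from −0.74 without KO_214 to 2.05 without KO_117.

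Within a genotype, Ctgf varied more than nearly every other gene. The SD of its log2(FPKM + 1) was 1.26 among controls, above 98.7% of the genes tested, and 2.80 among Med23 CKO mice, above 99.8%. For Cyr61 the SDs were 0.85 and 1.98, above 93.5% and 98.3% of genes. The median gene had an SD of 0.31 among controls and 0.43 among Med23 CKO mice. Yap1, by comparison, had SDs of 0.43 and 0.40, above 67.4% and 45.8% of genes.

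Ranked by their control means, Cyr61 (22.9 FPKM), Ctgf (18.8), Wwtr1 (18.2) and Tead1 (16.6) were the most abundant of the 10 genes, followed by Amotl2 (11.3) and Yap1 (9.94). Tead2 (3.29) and Tead3 (2.80) were lower, and Ankrd1 (0.394) and Tead4 (0.325) were lowest. Neighbours in this order did not separate well. The order of a neighbouring pair held in 3 to 7 of the 7 libraries, and the 1 pair that held in all 7 was Tead3 above Ankrd1. Cyr61 was above Ctgf in 5 libraries, Ctgf above Wwtr1 in 3, and Tead2 above Tead3 in 5.

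The promoter sequences of the target genes show where the TEAD core motif sits. The motif CATTCC, the core bound by TEAD factors, and TGANTCA, the motif of AP-1 factors that often act together with TEADs, were searched on both strands in RefSeq promoter windows of 300 bases on GRCm38.p6 (250 bases before and 50 after each start site). Windows were found for 7 of the 10 genes, with 10 windows in all, and none was listed for Tead1, Tead4 and Ctgf. The TEAD core was present for 6 of the 7 genes (all but Tead2), and in 8 of the 10 windows. Some windows overlap, and those of Wwtr1 hold the same match. The core is present in 14.7% of the 32851 promoter windows in the table. This is a share of windows, and genes with several windows have more than 1 place for a match. TGANTCA was found for 0 of the 7 genes, against 7.81% of all windows. Such matches describe the sequence and do not show binding. The 250 bases before the start site of Cyr61 (RefSeq name Ccn1; chr3:145649986-145650235, minus strand) are shown because this gene had one of the widest ranges over the mice; the TEAD core, in capitals, begins 103 bases before the start site.
Cyr61: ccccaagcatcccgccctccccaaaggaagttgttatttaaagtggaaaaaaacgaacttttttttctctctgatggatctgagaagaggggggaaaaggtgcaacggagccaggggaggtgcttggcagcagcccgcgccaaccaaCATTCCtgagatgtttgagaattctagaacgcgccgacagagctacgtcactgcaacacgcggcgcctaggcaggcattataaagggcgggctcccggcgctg

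Ankrd1 and Amotl2, the remaining target genes with a window, carry 2 matches and 1 match. Each is given with 10 bases on either side, 5′ to 3′ in the direction of the gene, with the core in capitals. GGAATG is the reverse complement of CATTCC. The Ankrd1 matches (minus strand of the chromosome, chr19:36120039-36120064 and chr19:36119952-36119977) begin 210 and 123 bases before the start site, and the Amotl2 match (plus strand, chr9:102717729-102717754) begins 65 bases before it.
Ankrd1 distal: cactgccaaaGGAATGaccctctcac
Ankrd1 proximal: cactaagtctGGAATGaaaattcacc
Amotl2: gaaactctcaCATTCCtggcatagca

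The genes lie on 7 different chromosomes. In RefSeq on GRCm38.p6, Yap1 is at chr9:7931999-8004638 and Amotl2 at chr9:102717091-102733418, Wwtr1 at chr3:57455644-57575910 and Cyr61 at chr3:145646971-145649985, and Tead1 at chr7:112679356-112906784 and Tead2 at chr7:45215792-45233468. Tead3 is at chr17:28331671-28350805, Tead4 at chr6:128227143-128300813, Ankrd1 at chr19:36111965-36119844 and Ctgf (RefSeq name Ccn2) at chr10:24595442-24598683.

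The Med23 CKO mice did not move together from the controls. KO_214 was the highest library for 8 of the 10 genes, and KO_117 was the highest for the remaining 2 (Tead1 and Tead2) and the lowest for 5 (Tead4 and the 4 target genes). Over all genes tested, KO_214 was highest for 25.4%, KO_117 highest for 23.6% and KO_117 lowest for 20.6%. Those shares cover genes over the filter, whereas Tead4 was under it and Ankrd1 passed it through KO_214. Without Tead4 and Ankrd1, KO_214 was highest for 6 of 8 members (75%). Over the same 8, the median difference from the control mean was −0.084 in KO_117, 0.90 in KO_214 and 0.098 in KO_218 on the log2 scale. Over all genes tested these medians were 0.00077, 0.01 and −0.10.

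A longer list of 18 other genes known as YAP/TAZ targets showed the same order of the 3 mice. It does not hold the members and was chosen, like them, with earlier results of these data known. Its medians were −0.53 in KO_117, 0.77 in KO_214 and 0.12 in KO_218. This order of the mice was not particular to the targets. The mural and fibroblast, endothelial, microglia, astrocyte, ependymal and oligodendrocyte marker sums, given below, had it too. The neural stem and proliferation sums had the opposite order, and the neuron sum had neither. KO_214 exceeded KO_117 by at least 1 on the log2 scale for 10 of the 18 genes (55.6%) and for 4 of the same 8 members (50%), against 19% of all genes tested. KO_117 exceeded KO_214 by as much for 1 of the 18 (5.56%) and for 1 of the 8 (12.5%, Tead1), against 13.8%. The 8 members include Ctgf and Cyr61, whose values set KO_214 and KO_117 apart, so their count is no separate support for that gap. Between genotypes, all 18 were tested and 0 passed an unadjusted limma p of 0.05 in either direction. For 11 of them the mean was higher and for 7 lower in Med23 CKO cultures, with a median log2 fold change of 0.16, against −0.03 over all genes tested. The median was −0.25 without KO_214, −0.039 without WT_220 and 0.39 without KO_117. The smallest limma p in the list belonged to Igfbp3, a secreted IGF-binding protein, which was 305.5, 211, 326 and 467 FPKM among controls and 306, 197 and 141 FPKM among Med23 CKO mice (log2 fold change −0.62, SE 0.34, exact permutation p = 0.171). KO_117 lay inside the control range and the other 2 Med23 CKO mice below it. Next came Nt5e, an ectonucleotidase, with a log2 fold change of −0.87 (exact permutation p = 0.257).

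All 24 Hippo pathway regulators (kinases, scaffolds, junction proteins and protocadherins) were tested and 0 passed an unadjusted limma p of 0.05. Their means were higher in Med23 CKO cultures for 16 and lower for 8, with a median log2 fold change of 0.081. The core kinase Lats1 lay between 10.95 and 14.1 FPKM in all 7 libraries. Its paralog Lats2, which is itself a YAP target and stands in both lists, was 10.1, 17.6, 13.8 and 5.59 FPKM among controls and 5.81, 26.4 and 13.7 FPKM among Med23 CKO mice, with KO_214 on top as for the target genes. Lats1 and Lats2 are named after their values were seen.

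By the smallest limma p, Amotl1 and Stk3 led the regulators. Amotl1, an angiomotin paralog of Amotl2, was 24.6, 25.6, 28.5 and 26.2 FPKM among controls and 44.7, 30.2 and 28.8 FPKM among Med23 CKO mice. Every Med23 CKO value was above every control value, KO_218 by little, which was so for 0.784% of all genes tested. The log2 fold change was 0.36 (SE 0.19, unadjusted limma p = 0.104, exact permutation p = 0.0286, the smallest possible). It was 0.16 without KO_117 and 0.44 without KO_214. Stk3, the MST2 kinase at the head of the cascade, had a log2 fold change of 0.47 (SE 0.34, exact permutation p = 0.257). KO_214 exceeded KO_117 by at least 1 on the log2 scale for 4 of the 24 regulators (16.7%), near the 19% of all genes. KO_117 exceeded KO_214 by as much for 3 of them (12.5%), against 13.8% of all genes.

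**Figure D4:**
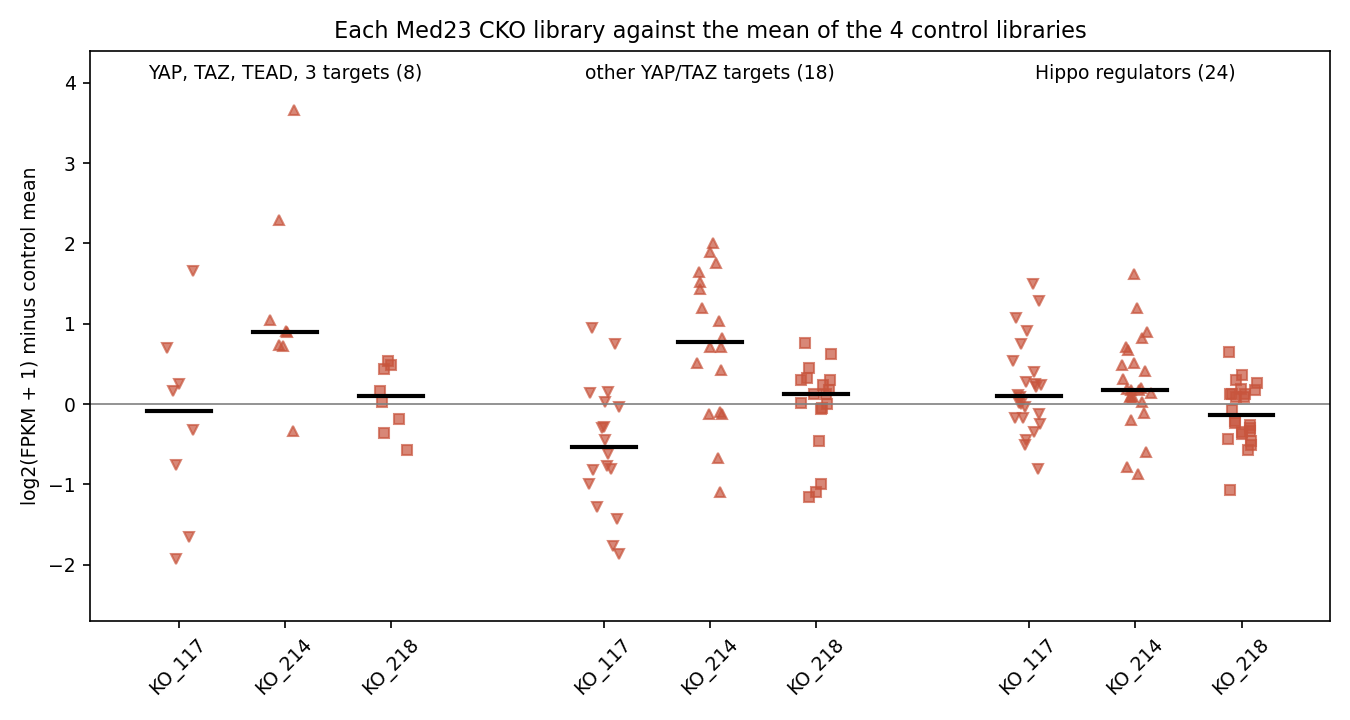
Difference of each Med23 CKO library from the mean of the 4 control libraries, in log2(FPKM + 1), for 8 members (without Tead4 and Ankrd1), 18 other YAP/TAZ target genes and 24 Hippo pathway regulators; each symbol is a gene and each bar a median. For the members and the other targets the bars are lowest in KO_117 (−0.084 and −0.53) and highest in KO_214 (0.90 and 0.77), while for the regulators they lie between −0.14 and 0.18.

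The Vestigial-like proteins compete with YAP and TAZ for TEAD factors. Vgll4, a repressor of YAP and TEAD activity, was 50.9, 34.8, 34.7 and 50.01 FPKM among controls and 29.0, 31.9 and 22.4 FPKM among Med23 CKO mice. The 3 Med23 CKO libraries all lay lower than the lowest control. The log2 fold change was −0.59 (SE 0.22, limma adjusted p = 0.9999 and exact permutation p = 0.0857), with −0.70 without KO_214 and −0.63 without KO_117. Of the 2 genes tested in this list of 4, it was the 1 lower at an unadjusted limma p under 0.05, against 0.996% of all genes, and it did not pass the adjusted threshold. Vgll3 was 1.77, 0.970, 1.52 and 0.169 FPKM among controls and 0.0973, 7.62 and 0.748 FPKM among Med23 CKO mice (log2 fold change 0.35, exact permutation p = 0.8), again with KO_214 highest and KO_117 lowest. Vgll1 was listed at 0 in every library, and Vgll2 reached at most 0.211 FPKM.

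Of 8 paralogs of the target genes, 5 were tested and 0 passed an unadjusted limma p of 0.05. Beyond Amotl1, the next smallest limma p was that of Amot, which was 3.46, 2.79, 4.44 and 3.53 FPKM among controls and 5.56, 3.82 and 4.14 FPKM among Med23 CKO mice (log2 fold change 0.27, exact permutation p = 0.171). Wisp1, a CCN gene, was 0.512, 0.388, 0.864 and 0.1 FPKM among controls and 0.180, 2.42 and 0.820 FPKM among Med23 CKO mice. Without KO_214 its mean is under 0.5 FPKM, so that it passed the filter through that library alone. It is named after its values were seen for its likeness to Ctgf and Cyr61, although it was lowest in WT_220 and not in KO_117.

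Cell type markers differed between the same mice. Neural stem and progenitor markers, among them Sox2, Nes and Fabp7, were listed above 0 in every library. So were all markers of the other lists but Ccdc153 and Tmem212, so that this does not tell cell types apart. The sum of the 8 markers of this list was 669.5 to 1994 FPKM in controls, 2030 FPKM in KO_117, 366 FPKM in KO_214 and 1243 FPKM in KO_218. The sum of 9 mural and fibroblast markers was 14.7 to 119.9 FPKM in controls, 10.4 FPKM in KO_117, 504 FPKM in KO_214 and 70.8 FPKM in KO_218, and all 9 were highest in KO_214. By these sums KO_214 had the least neural stem cell and the most mural and fibroblast marker messenger of the 7 cultures, and KO_117 the reverse. The sums are dominated by Fabp7 and by Acta2 and Tagln. Gene by gene, 5 of the 8 neural stem markers were lowest in KO_214 and 3 highest in KO_117, while Prom1 was highest in KO_214, and 3 of the 9 mural and fibroblast markers were lowest in KO_117. The 8 endothelial markers summed to 10.6 to 62.0 FPKM in controls, 5.55 FPKM in KO_117 and 115 FPKM in KO_214, with 8 of 8 highest in KO_214. The 9 microglia markers summed to 11.1 to 67.1 FPKM in controls, 11.9 FPKM in KO_117 and 288 FPKM in KO_214, with 7 of 9 highest in KO_214.

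Of the remaining lists, the 6 astrocyte markers summed to 332 to 492 FPKM in controls, 322 FPKM in KO_117, 654 FPKM in KO_214 and 416 FPKM in KO_218, and the 5 neuron markers to 30.7 to 63.6 FPKM in controls and 40.6 to 45.2 FPKM in Med23 CKO cultures. The 6 proliferation markers summed to 316 to 752 FPKM in controls, 966 FPKM in KO_117 and 214.6 FPKM in KO_214. For the 5 oligodendrocyte markers the sums were 351.5 to 4255 FPKM in controls, 100 FPKM in KO_117, 2605 FPKM in KO_214 and 2277 FPKM in KO_218. The 4 ependymal markers summed to 6.60 to 20.0 FPKM in controls and 3.20 to 36.8 FPKM in Med23 CKO cultures; Ccdc153 and Tmem212 of that list were at 0 in at least 1 library, and no other marker of any list was.

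The order of the 7 libraries by Ctgf was the same as their order by the summed mural and fibroblast markers: KO_214, WT_213, WT_215, KO_218, WT_116, WT_220 and KO_117, from high to low. Acta2, which with Tagln dominates that sum, had this order by itself. Tagln and the remaining markers of the list did not, with Col1a1 lowest in KO_218 and Col1a2 lowest in WT_220. By the other marker sums, 1 to 5 of the 7 libraries had the same rank as by Ctgf, with 5 for ependymal markers and 4 each for endothelial and astrocyte markers. For Cyr61, 5 libraries had the same rank as by the mural and fibroblast sum, 5 as by the endothelial sum and 4 as by the ependymal sum. Of the factors, Yap1 shared 2 ranks with the mural and fibroblast sum, Wwtr1 1 and Tead1 0. Their largest numbers over the marker lists were 4 for Yap1 and 4 for Wwtr1, both with the microglia sum. For Tead1 the largest was 3, with the neural stem sum and with the proliferation sum. The part of these cell types in the levels of Cyr61 and the other genes was likewise not tested.

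**Figure D5:**
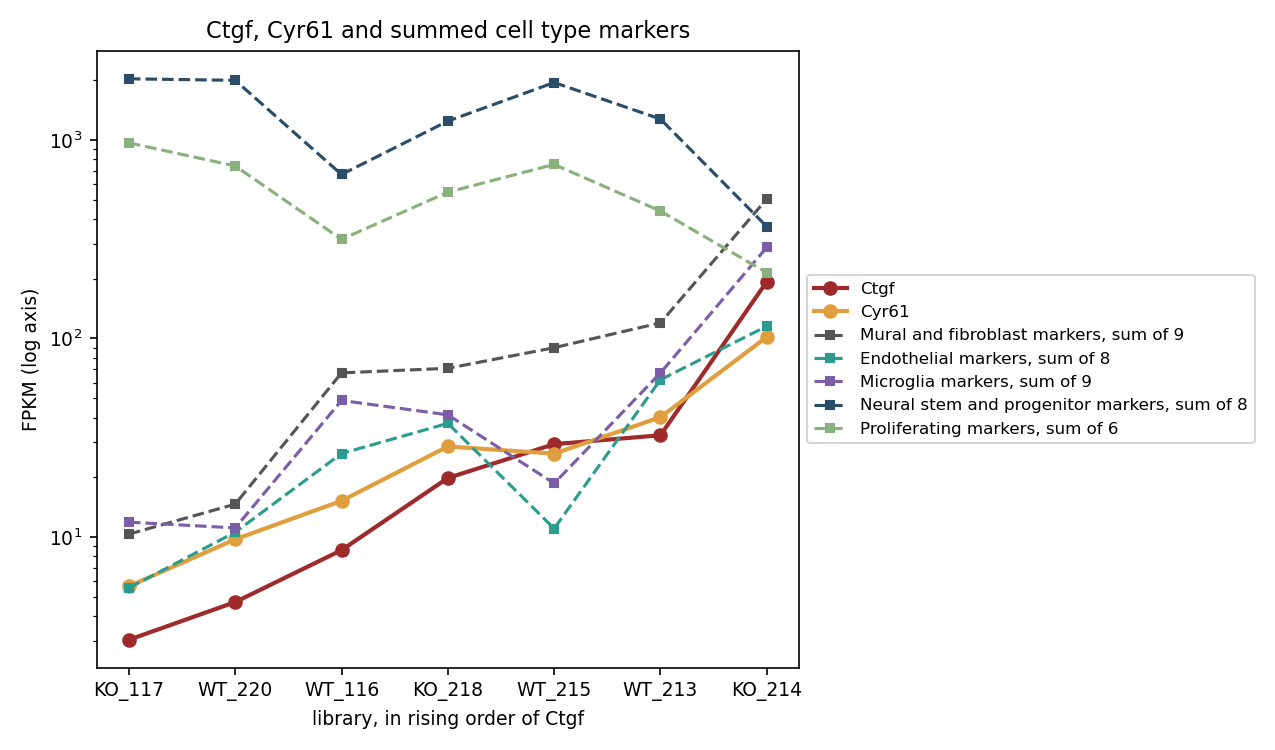
FPKM of Ctgf and Cyr61 and summed FPKM of 5 marker lists in each library, on a log axis, with the libraries in rising order of Ctgf. The mural and fibroblast sum, dominated by Acta2 and Tagln, rises with Ctgf in every step, from 10.4 FPKM in KO_117 to 504 FPKM in KO_214. In KO_214 the neural stem and progenitor sum is at its lowest (366 FPKM).

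The genes nearest in profile to Ctgf were found by the root mean square difference of log2(FPKM + 1), each gene centred on its own mean, over the 7 libraries. They were Ccl3 (0.32), Ccl9 (0.37), Cd52 (0.44), Arhgdib (0.44) and Thbs1 (0.45). Ccl3 and Ccl9 are chemokines, Cd52 and Arhgdib are abundant in leukocytes, and Thbs1 is a secreted matrix protein. Ccl3, for example, was 16.7, 8.46, 21.9 and 2.81 FPKM among controls and 3.08, 206 and 16.9 FPKM among Med23 CKO mice. Cyr61 was the 27th nearest gene to Ctgf, with a difference of 0.60. The remaining members tested were farther away, from rank 1071 (Ankrd1) to rank 11176 (Tead1).

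For Cyr61 the nearest genes were Ass1 (0.22), Fn1 (0.25), Rarres2 (0.26), Pdgfrb (0.27) and Aqp4 (0.27), and Ctgf ranked 320 (0.60). Fn1 encodes fibronectin, Pdgfrb is a receptor of mural cells and Aqp4 is a water channel of astrocytes. Pdgfrb, also on the mural and fibroblast list, was 3.26, 2.47, 8.97 and 1.18 FPKM among controls and 0.948, 25.2 and 5.48 FPKM among Med23 CKO mice. These likenesses are descriptions over 7 libraries.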

How the data were processed

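RNA-seq libraries of primary neurospheres, 1 mouse each, were grouped by genotype label. Per the methods of the study, the authors trimmed adapters, mapped reads to mm10 by Tophat, and obtained FPKM per gene from Cuffdiff. The deposited FPKM values of 24346 genes were used; the deposited group means, fold changes and test columns were not. Low values gave no whole reads (at most 3.72% of low genes shared a step of 0.05 log2 over 21 library pairs), so depth is unknown. The 14151 genes with a mean of at least 0.5 FPKM were tested as log2(FPKM + 1) by limma 3.58.1 in R 4.3.3 (eBayes with trend, two-sided, Benjamini-Hochberg adjustment over all genes); log2(FPKM + 1) understates changes of low genes. Single members were also tested by two-sided exact permutation in Python 3.11.15. The limma test was checked on simulated data. Members and gene lists were chosen with earlier results of these data known. Genes named beyond the members are, per list, the 2 with the smallest p and any with a p under 0.05, marker genes at 0 or most abundant, and the 5 nearest profiles to Ctgf and Cyr61. Coordinates and promoters are from RefSeq on GRCm38.p6 (mm10); protein sequences were not used here. Alternatives were a pseudocount of 0.1, no filter, a mean of at least 1 FPKM, quantile normalization, centring on library medians, limma without trend or with array weights, mouse number (its first digit) as covariate, and each library left out.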

Additional observations from a re-analysis of the deposited data

How the results depend on the processing

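No paired analysis was possible because the mouse numbers are not shared between the groups. For the 9 members tested, 63 values leave out a library, of which 52 kept their direction and side of an unadjusted p of 0.05, 3 crossed it and 8 reversed; of 71 other alternatives, 66 kept both and 5 reversed. Tead4 has 10 further values with no test. The reversals were Tead1 (−0.036), Tead2 (−0.11), Tead3 (−0.10) and Ankrd1 (−0.32) with array weights, which gave KO_117 a weight of 0.301 and KO_218 a weight of 3.01, and Ankrd1 with a pseudocount of 0.1 (−0.42). The median of the Hippo regulators was −0.063 with array weights. Genes higher at an unadjusted p under 0.05 numbered 71 of 14151, against 193 with array weights. Genes lower numbered 141, against 887 with array weights. With no filter, where all 24346 genes were tested, 195 were higher and 273 lower. The cause was not tested.

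With each library left out in turn, genes higher numbered 45 to 354 (without WT_215 and without KO_117) and genes lower 70 to 410 (without KO_218 and without KO_117). Genes with an adjusted p under 0.05 numbered 0 to 1: Snora64 without KO_214 (log2 fold change 5.20, adjusted p = 0.000924) and Gm38671 without KO_218 (3.74, adjusted p = 0.0146), both by limma and neither a member. Members called higher numbered 0 to 1 and called lower 0 to 1. The log2 fold changes ran from −0.16 to 0.37 for Tead1, −0.014 to 0.45 for Tead3, −0.13 to 0.42 for Tead4, −0.74 to 2.05 for Ctgf, −0.58 to 1.39 for Cyr61, −0.43 to 0.36 for Ankrd1 (−0.042 without WT_220) and −0.66 to 0.076 for Amotl2. Tead1 was −0.095 without WT_116. Yap1 (0.21 to 0.57), Wwtr1 (0.10 to 0.79) and Tead2 (0.27 to 1.28) kept their sign. The median of the other YAP/TAZ targets ran from −0.25 to 0.39, and was −0.039 without WT_220. Ankrd1 could not be tested at a mean of at least 1 FPKM, nor Tead4 in the alternatives that keep the filter and change only limma.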

Other observations

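Ctgf lies 271 kb from Med23 on mouse chromosome 10, and Med23 CKO mice carry a modified Med23 locus. The littermate controls of the study could carry floxed Med23 alleles too, which are not given for each mouse. Among the genes between Ctgf and Med23, Enpp1 was 1.06, 4.02, 2.12 and 0.435 FPKM among controls and 0.197, 8.82 and 1.81 FPKM among Med23 CKO mice, with KO_214 highest and KO_117 lowest as for Ctgf. Enpp3 was 3.12, 1.23, 1.29 and 3.44 FPKM among controls and 4.37, 0.756 and 2.92 FPKM among Med23 CKO mice, with KO_117 highest and KO_214 lowest. The log2 fold change was 0.30 for Enpp1 and 0.10 for Enpp3, with a limma adjusted p of at least 0.9999 for both. These neighbours were chosen by position after the values of Ctgf were seen.

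Wwc1, a scaffold of the Hippo kinases also known as KIBRA, was highest in KO_117 and lowest in WT_116, with KO_214 next to lowest. It was 40.0, 13.5, 26.4 and 71.1 FPKM among controls and 78.8, 18.1 and 22.1 FPKM among Med23 CKO mice, with a log2 fold change of −0.0060 (exact permutation p = 1, the largest possible). Dchs1, a protocadherin upstream of the pathway, was 13.8, 4.46, 8.05 and 14.0 FPKM among controls and 28.0, 5.75 and 6.44 FPKM among Med23 CKO mice (log2 fold change 0.15, exact permutation p = 0.886). Both were highest in KO_117, where Ctgf and Cyr61 were lowest, and both were chosen after their values were seen. Other regulators went the other way: 10 of the 24 (41.7%) were highest in KO_214, as Ctgf and Cyr61 were, against 25.4% of all genes tested. The neural stem and progenitor marker sum was also highest in KO_117 (2030 FPKM). The part of these cells in the levels of Wwc1 and Dchs1 was not tested.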
